A study of Homo sapiens with 16 samples.

Results

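SP-2509 is an inhibitor of the histone demethylase LSD1, which is encoded by KDM1A. Its effect on messenger RNA was measured here in a line made from the Ewing sarcoma cell line A673 in which UQCRFS1 had been knocked out. The 4 libraries of that knockout line, out of 16 in the study, were chosen by the names of their raw count columns. They are 2 libraries of cells treated for 48 h with SP-2509 at 500 nM and 2 libraries of cells given the solvent, DMSO at 0.1%, for the same time. The same treatments, again with 2 libraries each, were applied to CYC1 and MRPL45 knockout lines of A673 and to A673 itself. Every group carries the EWSR1::FLI1 fusion of A673. Each gene was knocked out in 1 line, so that another trait of the line and an effect of the knockout cannot be told apart. The sample titles do not say whether a line is a clone. No label says that replicates came from separate cultures, so the tests reflect variation among libraries alone, and this variation may be technical.

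UQCRFS1 is the Rieske iron-sulfur protein, the subunit through which respiratory complex III passes electrons from ubiquinol to cytochrome c1, the product of CYC1. Cells without complex III activity cannot run the mitochondrial electron transport chain to completion and depend on glycolysis and on outside sources of aspartate and pyruvate. LSD1 removes methyl groups from lysine 4 of histone H3 within repressor complexes with CoREST proteins or NuRD. EWSR1::FLI1, the driver of Ewing sarcoma, is known to recruit NuRD and LSD1 to genes that it represses.

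Poly(A) RNA was sequenced, and 55411378 and 55097368 reads were counted on genes in the SP-2509 libraries, against 49130355 and 50238095 in the DMSO libraries. Counts were compared over 21633 genes with edgeR's quasi-likelihood test, in 1 fit of all 16 libraries, and a gene was called where its Benjamini-Hochberg adjusted p was under 0.05. Levels are given in CPM, counts scaled to library size after TMM normalization, which are not divided by transcript length and so are compared between libraries only, not between genes. Fold changes are log2 of SP-2509 over DMSO with the standard error (SE) after the ± sign, n = 2 libraries a group. In this text a gene "rose" or "fell" only where it was called. The genes of the mitochondrial genome held 0.872% and 0.996% of counts in the SP-2509 libraries, against 1.75% and 1.33% in the DMSO libraries. Rows without a gene symbol held 5.46% and 5.54% in the SP-2509 libraries, against 7.12% and 8.59% in the DMSO libraries.

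UQCRFS1 itself was still counted in its knockout line, with 88.2 and 77.8 CPM in the SP-2509 libraries and 58.6 and 60.9 CPM in the DMSO libraries. The corresponding levels in A673 were 116 and 119 CPM with SP-2509 and 102 and 98.6 CPM with DMSO. Under DMSO the knockout line lay below A673 by a log2 difference of -0.74 ± 0.06 (adjusted p 2.47e-09), and within the knockout line UQCRFS1 rose with SP-2509 by 0.47 ± 0.06 (adjusted p 4.66e-07). A total over the gene does not show whether the remaining transcript is altered, so it checks the label only in part. The inhibitor's target KDM1A had 378 and 368 CPM in the SP-2509 libraries and 360 and 379 CPM in the DMSO libraries, which overlap, and it was not called (0.01 ± 0.06, adjusted p 0.857), although upper-quartile scaling called it lower at -0.12. The partner genes of the fusion were called higher by small amounts, FLI1 by 0.22 ± 0.06 and EWSR1 by 0.14 ± 0.06, but neither call held under upper-quartile scaling, and gene counts do not separate the fusion from EWSR1's own transcript.

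The response was broad. Of the 21633 genes tested, 11837 (54.7%) were called, 6404 higher (29.6%) and 5433 lower (25.1%), and 4213 changed by at least 2-fold, 1879 of them up and 2334 down. The median log2 fold change over all tested genes was 0. Counts of list members below stand against these shares of all tested genes, 29.6% higher and 25.1% lower. The split depended on scaling: 54.1% of the calls were higher under TMM scaling, against 43.6% of 11988 calls under upper-quartile scaling, which moved all fold changes by -0.14, so changes of about that size have no firm sign. Genes whose 2 SP-2509 libraries lay on the same side of both DMSO libraries numbered 16101 (74.4%). The authors' deposited table of the same comparison called 11528 genes, and all of the 11179 called in both had the same sign.

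The largest increases were ranked among genes with at least 5 CPM in the higher group and at least 4 counts in the lower. Libraries of the groups also had to lie apart, so their separation is no result here. These increases included genes that were close to silent with DMSO. SPRR2D, a protein of the cornified envelope of skin, had 14.3 and 13.7 CPM with SP-2509 and 0.02 and 0.08 CPM with DMSO. ANKRD1, a target of the coactivators YAP and TAZ, had 25.4 and 21.2 CPM with SP-2509 and 0.237 and 0.441 CPM with DMSO, and TAC1, the precursor of substance P, 6.92 and 6.03 against 0.079 and 0.14 CPM. The log2 fold changes of these 3 genes were 8.06 ± 0.33, 6.10 ± 0.15 and 5.85 ± 0.29. The inflammatory mediators PTX3 (5.38 ± 0.16) and CXCL8 (5.35 ± 0.19), the ubiquitin ligase MARCHF4 (5.20 ± 0.11), the transcription factor ETS1 (5.02 ± 0.15), the BH3-only cell death protein HRK (4.94 ± 0.21), the collagenase MMP1 (4.86 ± 0.14), the WNT antagonist DKK1 (4.83 ± 0.17), the keratin-associated KRTAP4-9 (5.65 ± 0.24) and the long noncoding RNA RP11-420N3.2 (5.52 ± 0.53) were the other increases among the 12 largest within those limits. KRTAP4-9 belongs to a family of near-identical copies, so its own count is uncertain.

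Among the largest decreases within the same limits was that of the secreted phospholipase PLA2G3. PLA2G3 had 0.388 and 0.478 CPM with SP-2509 and 27.7 and 29.5 CPM with DMSO, a 65.6-fold decrease (log2 fold change -6.04 ± 0.18). Argininosuccinate synthase, ASS1, fell by 4.92 ± 0.18 on the log2 scale. As for the increases, the libraries of the groups could not overlap under these limits. Other large decreases were those of the methyltransferase-like METTL7A (-4.68 ± 0.12), RP1-193H18.2 (-4.53 ± 0.23), the ER-bound transcription factor CREB3L1 (-4.20 ± 0.14), the kinase CDK18 (-4.07 ± 0.13), the long noncoding RNA OLMALINC (-4.06 ± 0.13), the antiviral IFIT1 (-4.01 ± 0.20), the p38 kinase kinase MAP2K6 (-3.90 ± 0.11), the glucosidase PGGHG (-3.89 ± 0.24) and aldehyde dehydrogenase ALDH2 (-3.87 ± 0.13).

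By difference of mean CPM, leaving out the genes of the mitochondrial genome, the 10 largest gains and the 10 largest losses were also examined. Cytoplasmic actin ACTG1 had 4383 and 4200 CPM with SP-2509 and 1872 and 2121 CPM with DMSO (1.10 ± 0.07), and the LIM protein CSRP1 had 2075 and 1999 CPM against 669 and 757 CPM (1.51 ± 0.06). Fibronectin FN1, elongation factor EEF2, caveolin CAV1, the glycolytic enzymes ENO1 and PKM and the noncoding RNAs SNHG3 and MALAT1 also rose, by between 0.66 and 1.09 on the log2 scale. Among the largest losses, fatty acid synthase FASN had 556 and 626 CPM with SP-2509 and 1234 and 1524 CPM with DMSO (-1.22 ± 0.09). The linker histone HIST1H1B, the collagen COL1A2, the chaperones HSP90AA1 and HSPD1, the desaturases FADS2, FADS1 and SCD, the segregase VCP and the tubulin TUBB made up the rest of the 10 largest losses outside the mitochondrial genome.

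Cholesterol synthesis, sterol uptake and fatty acid desaturation fell almost as a block. These genes are the textbook targets of SREBP-2 (gene SREBF2) and SREBP-1 (SREBF1), membrane-bound factors that SCAP escorts out of the endoplasmic reticulum when sterols are scarce and that INSIG1 holds back when they are plentiful. Of the 20 enzymes of cholesterol synthesis, all of which were tested, 19 fell and none rose, with a median log2 fold change of -1.48, against 25.1% of all tested genes that fell. The one not called was PMVK (0.18 ± 0.10). Of 14 genes of sterol sensing and uptake 11 fell and 2 rose (median -1.19), and of 14 genes of fatty acid synthesis and desaturation 11 fell and 1 rose (median -0.88).

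HMGCS1, which makes HMG-CoA, had 16.9 and 15.2 CPM with SP-2509 and 96.0 and 94.1 CPM with DMSO (-2.56 ± 0.07). The decarboxylase MVD had 4.55 and 4.86 CPM against 44.0 and 48.4 CPM (-3.29 ± 0.09), the largest decrease among the enzymes. Squalene synthase FDFT1 (-2.56 ± 0.07) and the last enzyme of the pathway, DHCR7 (-2.73 ± 0.07), fell as well. In each of these genes both SP-2509 libraries were below both DMSO libraries.

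Uptake and feedback genes moved with the enzymes. INSIG1 had 9.39 and 8.58 CPM with SP-2509 and 89.8 and 87.0 CPM with DMSO (-3.30 ± 0.07). The factors themselves fell as well: SREBF2 had 70.3 and 74.6 CPM against 175 and 189 CPM (-1.33 ± 0.07), and SREBF1 had 47.7 and 52.9 CPM against 199 and 222 CPM (-2.07 ± 0.07). The protease genes MBTPS1 (-0.74 ± 0.06) and MBTPS2 (-0.54 ± 0.06), which release the factors from the membrane, fell less, and SCAP was not called (-0.02 ± 0.09). The 2 that rose were NPC1 (0.36 ± 0.07) and NPC2 (0.50 ± 0.11), which export cholesterol from the lysosome and were named after their values were seen.

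The desaturases FADS2 (-2.62 ± 0.08), FADS1 (-2.18 ± 0.07) and SCD (-1.81 ± 0.07) fell furthest among the fatty acid genes. FADS2 had 95.8 and 102 CPM with SP-2509 and 593 and 622 CPM with DMSO. The only rise was that of the glycerol-phosphate acyltransferase GPAM (0.64 ± 0.06), and ELOVL5 and LPIN1 were not called except, as lower, under upper-quartile scaling. The sterol efflux genes driven by the oxysterol receptors LXR did not go the other way: ABCA1 had 0.327 and 0.458 CPM with SP-2509 and 2.19 and 2.82 CPM with DMSO (-2.67 ± 0.25), ABCG1 fell by 2.09 ± 0.23 on the log2 scale, MYLIP fell slightly (-0.23 ± 0.08), and the receptors NR1H2 (0.63 ± 0.07) and NR1H3 (0.83 ± 0.16) rose.

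The decrease was larger than in A673 for part of these genes. For the difference between the responses of the knockout line and of A673, 8 cholesterol synthesis genes were called lower and none higher, as were 6 sterol sensing genes and 6 fatty acid genes, where 7.68% of all tested genes were called lower and 3.02% higher. INSIG1 had 16.6 and 17.3 CPM with SP-2509 and 92.8 and 92.6 CPM with DMSO in A673, so that its fall in the knockout line exceeded that in A673 by 0.85 ± 0.09 on the log2 scale (adjusted p 1.06e-06). MVK and DHCR7 were also called.

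A match to the core of the sterol regulatory element, TCACNCCAC on either strand, was looked for in RefSeq promoter windows (GRCh38.p14, 250 bases before to 50 after the annotated start). It was found in 1 of 11 promoters of the sterol sensing genes and in none of 15 promoters of the synthesis enzymes, against 318 of 27305 promoters in the table (1.16%). The one match is in SREBF2, chr22:41832855-41833154 on the plus strand, and is in capitals here because the gene for the factor is itself among the genes that fell.

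SREBF2: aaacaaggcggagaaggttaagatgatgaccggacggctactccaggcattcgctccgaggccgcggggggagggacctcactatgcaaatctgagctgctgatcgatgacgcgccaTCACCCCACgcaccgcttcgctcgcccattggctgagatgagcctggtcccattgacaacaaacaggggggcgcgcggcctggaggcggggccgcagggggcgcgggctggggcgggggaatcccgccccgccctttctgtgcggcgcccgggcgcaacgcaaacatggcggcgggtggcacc

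A match describes these letters in this window, and no match says only that they are not there. SREBF2 fell by 1.33 on the log2 scale, less than MVD and HMGCS1, whose windows hold no match.

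**Figure D1:**
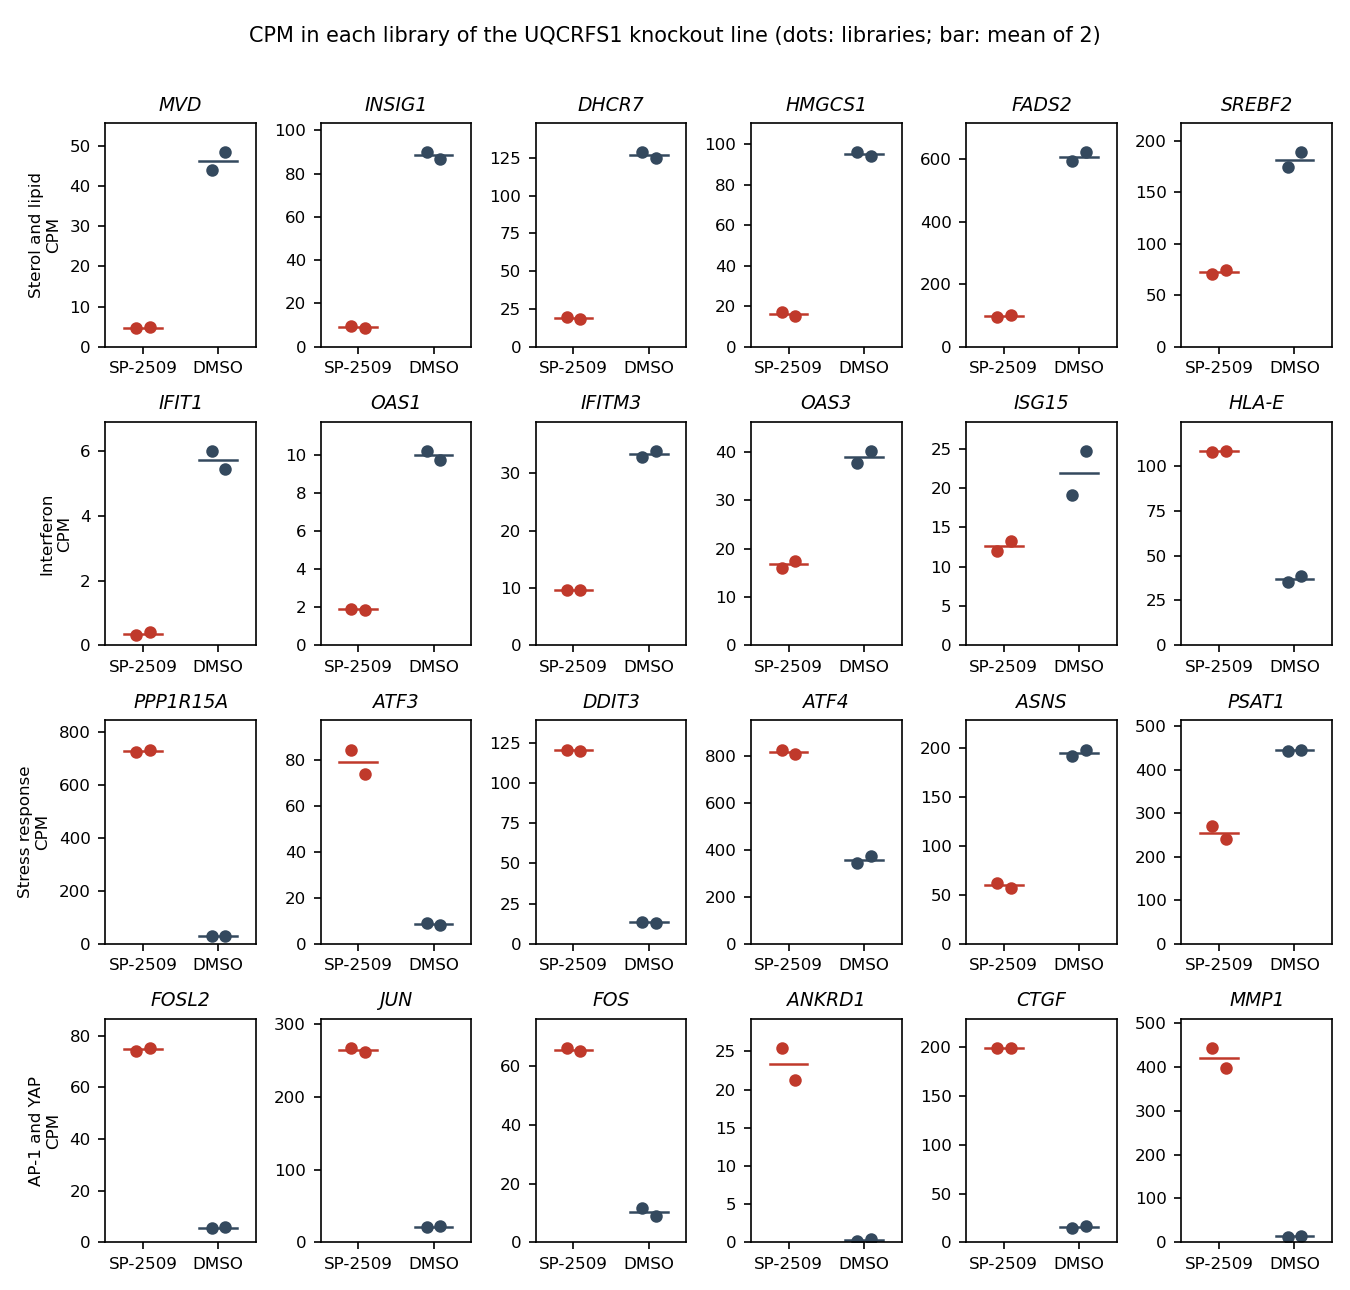
CPM (y axes, linear, each from 0) of 24 genes in the 2 SP-2509 and the 2 DMSO libraries of the UQCRFS1 knockout line, in rows of sterol and lipid, interferon, stress response, and AP-1 and YAP genes, with a bar at each mean. The 2 libraries of a treatment lie close together and apart from the other treatment in every panel: INSIG1 lies at 9.39 and 8.58 CPM with SP-2509 against 89.8 and 87.0 CPM with DMSO, and PPP1R15A at 726 and 734 CPM against 29.6 and 29.8 CPM.

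Interferon-stimulated genes fell, most of them from low levels. These genes encode antiviral effectors such as RNA-binding IFIT proteins, the OAS family of RNA sensors and IFITM proteins that block viral entry, and are switched on through STAT2 and IRF9. Of 35 genes listed 31 were tested, with a median log2 fold change of -1.21. Among them 21 fell (67.7%) and 5 rose (16.1%), against 25.1% and 29.6% of all tested genes. IFITM3 had 9.64 and 9.70 CPM with SP-2509 and 32.8 and 33.9 CPM with DMSO (-1.79 ± 0.07), OAS3 had 16.1 and 17.5 CPM against 37.7 and 40.2 CPM (-1.21 ± 0.07), and OAS1 had 1.92 and 1.85 CPM against 10.2 and 9.73 CPM (-2.40 ± 0.16). IFIT1 had 0.306 and 0.398 CPM against 6.00 and 5.45 CPM, a 16.1-fold decrease. In these 4 genes both SP-2509 libraries lay below both DMSO libraries, and those of the ubiquitin-like ISG15 did too (-0.80 ± 0.12). IFITM genes share sequence, and how reads common to them were assigned is not given in the sources used here.

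The 5 that rose, named after their values were seen, were the ligase HERC5 (1.92 ± 0.23), EPSTI1 (1.14 ± 0.35, not called by DESeq2), the deISGylase USP18 (0.58 ± 0.10), the nucleotide kinase CMPK2 (0.56 ± 0.14) and the RNA sensor DDX58 (0.33 ± 0.09, not called under upper-quartile scaling). Among 20 genes of interferon signalling 8 rose (40%) and 6 fell (30%), against 29.6% and 25.1% of all tested genes. This split turned to 7 and 8 under upper-quartile scaling. STAT2 had 28.6 and 27.5 CPM with SP-2509 and 43.3 and 45.9 CPM with DMSO (-0.67 ± 0.07), and IRF9, at 0.408 and 0.378 CPM against 0.336 and 0.28 CPM, was not called. The repressor IRF2 fell (-1.76 ± 0.09) and IRF1, an activator, rose (0.82 ± 0.12).

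Antigen presentation by MHC class I did not move as a unit. Of 16 genes 6 fell (37.5%) and 2 rose (12.5%), against 25.1% and 29.6% of all tested genes. HLA-C had 32.2 and 32.0 CPM with SP-2509 and 57.3 and 63.9 CPM with DMSO (-0.92 ± 0.07), and the peptide transporter genes TAP1 (-1.67 ± 0.23) and TAP2 (-1.10 ± 0.12) fell from low levels. HLA-E, a ligand of inhibitory receptors on natural killer cells, had 108 and 108 CPM against 35.5 and 38.4 CPM (1.55 ± 0.07), and B2M, the shared light chain, had 1135 and 1093 CPM against 714 and 719 CPM (0.64 ± 0.07). Reads of HLA genes can be split between near-identical copies.

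The decrease of interferon-stimulated genes exceeded that of A673. In A673, where 58.0% of all tested genes were called (31.6% higher and 26.4% lower), 7 of the 31 rose and 14 fell, with a median of -0.45. The difference of responses was called lower in the knockout line for 14 members and higher for none, against 7.68% and 3.02% of all tested genes. OAS1 had 3.81 and 3.87 CPM with SP-2509 and 7.27 and 6.93 CPM with DMSO in A673, a difference of responses of -1.51 ± 0.23 (adjusted p 7.30e-05). IFIT3 fell in the knockout line (-0.70 ± 0.12) and rose in A673 (0.47), a difference of -1.17 ± 0.17 (adjusted p 3.40e-05). IFIT2 did the same, with -2.05 in the knockout line and 0.78 in A673.

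The interferon-stimulated response element, searched as GAAA, NN and GAAA in a row on both strands, was present in 22 of the 28 interferon-stimulated genes with a promoter in the RefSeq table (78.6%), against 1016 of 27305 promoters (3.72%) and 378 of the 13042 promoters of tested genes (2.90%). Among the genes that fell 16 of 19 held a match, and among those that rose 2 of 4. The promoters of the 3 matched genes with the largest decreases and of the 2 matched genes that rose are printed. They show matches to the same pattern, in which the letters at NN are free, before genes that moved apart. Matches are in capitals, and each window is written 5′ to 3′ along the gene's strand (GRCh38.p14, 300 bases).

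BST2, chr19:17405581-17405880, minus strand: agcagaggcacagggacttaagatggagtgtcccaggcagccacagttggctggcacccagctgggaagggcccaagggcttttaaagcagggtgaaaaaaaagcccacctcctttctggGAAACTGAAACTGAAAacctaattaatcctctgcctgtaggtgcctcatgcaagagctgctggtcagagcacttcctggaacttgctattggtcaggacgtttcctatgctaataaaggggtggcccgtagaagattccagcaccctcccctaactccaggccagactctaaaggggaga
IFIT1, chr10:89392373-89392672, plus strand: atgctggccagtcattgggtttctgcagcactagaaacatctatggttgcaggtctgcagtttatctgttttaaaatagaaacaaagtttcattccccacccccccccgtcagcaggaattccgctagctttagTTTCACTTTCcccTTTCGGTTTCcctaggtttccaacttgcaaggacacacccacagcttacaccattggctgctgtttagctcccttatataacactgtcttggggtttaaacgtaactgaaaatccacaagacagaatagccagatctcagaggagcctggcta
IFI44L, chr1:78620198-78620497, plus strand: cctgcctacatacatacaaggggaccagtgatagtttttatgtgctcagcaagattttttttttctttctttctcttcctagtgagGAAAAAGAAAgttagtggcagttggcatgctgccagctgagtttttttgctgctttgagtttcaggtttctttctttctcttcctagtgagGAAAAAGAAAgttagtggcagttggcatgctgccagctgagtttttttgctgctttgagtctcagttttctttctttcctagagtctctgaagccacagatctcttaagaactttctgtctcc
HERC5, chr4:88456869-88457168, plus strand: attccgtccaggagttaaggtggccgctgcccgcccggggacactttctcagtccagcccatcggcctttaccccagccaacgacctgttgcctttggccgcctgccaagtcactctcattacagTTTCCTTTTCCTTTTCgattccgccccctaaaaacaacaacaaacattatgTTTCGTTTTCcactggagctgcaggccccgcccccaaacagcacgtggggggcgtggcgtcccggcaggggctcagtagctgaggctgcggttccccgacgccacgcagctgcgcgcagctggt
EPSTI1, chr13:42992192-42992491, minus strand: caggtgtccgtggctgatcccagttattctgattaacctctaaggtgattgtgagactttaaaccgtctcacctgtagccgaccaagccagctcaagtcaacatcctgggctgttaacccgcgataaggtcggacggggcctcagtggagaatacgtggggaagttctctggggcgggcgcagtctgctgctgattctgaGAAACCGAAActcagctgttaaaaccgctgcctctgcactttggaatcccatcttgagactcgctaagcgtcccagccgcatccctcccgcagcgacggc

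BST2 and HERC5 each hold overlapping matches. Matches to the pattern stood before BST2, IFIT1 and IFI44L, which fell by 4.12, 4.01 and 2.15 on the log2 scale. Matches also stood before HERC5 and EPSTI1, which rose. The letters at NN were not the same in all of these genes.

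**Figure D2:**
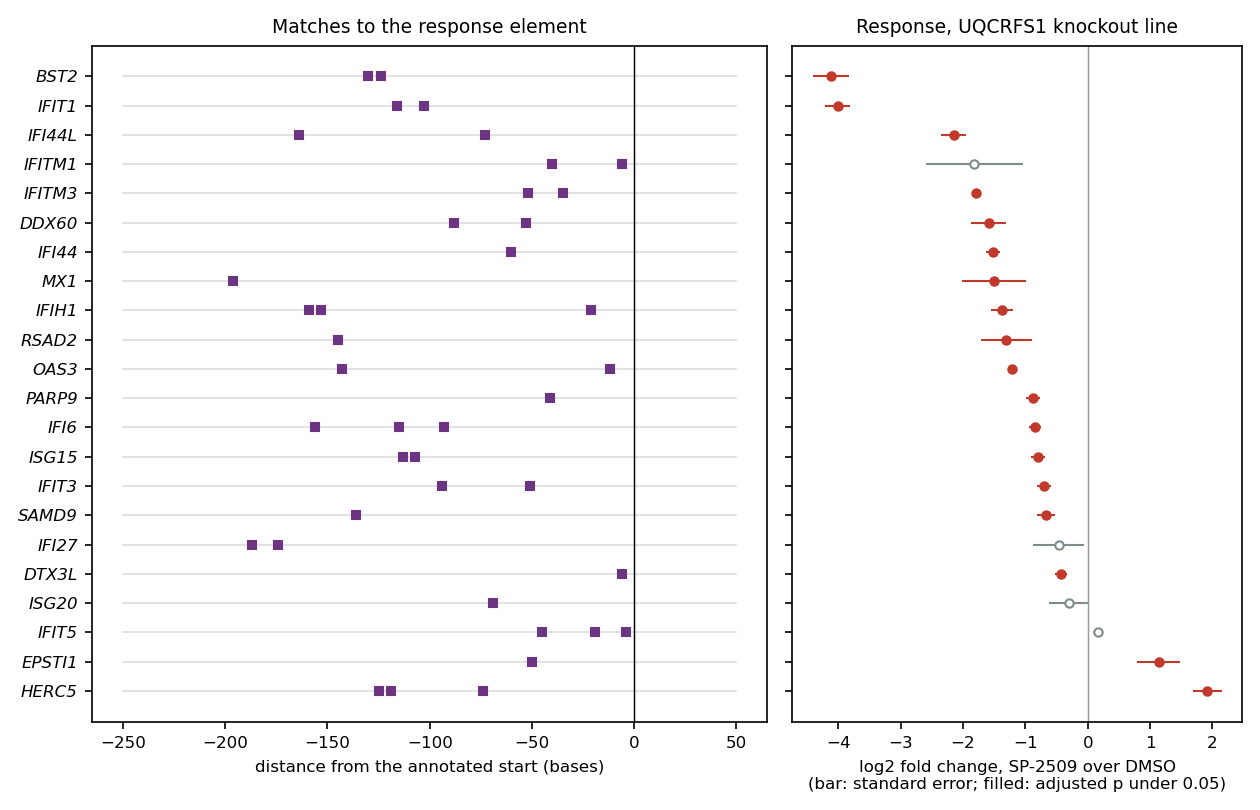
Left, positions of matches to the interferon-stimulated response element (squares) relative to the annotated start of 22 interferon-stimulated genes, in bases; right, log2 fold change of each gene, SP-2509 over DMSO, in the UQCRFS1 knockout line, with its standard error and filled where the adjusted p was under 0.05. Every match begins upstream of the start, and the genes run from BST2 (-4.12) to HERC5 (1.92).

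Several regulators of the integrated stress response rose strongly and others fell, and amino acid synthesis genes fell more often than they rose. In this response, kinases that sense amino acid lack, ER stress or mitochondrial stress phosphorylate eIF2 alpha, which raises translation of ATF4, and ATF4 with CEBP partners induces DDIT3 (CHOP), TRIB3, the phosphatase subunit PPP1R15A (GADD34) that ends the response, and genes for amino acid synthesis and import. Of 22 regulators 12 rose (54.5%) and 8 fell (36.4%), with a median of 0.53, against 29.6% and 25.1% of all tested genes. PPP1R15A had 726 and 734 CPM with SP-2509 and 29.6 and 29.8 CPM with DMSO, a 24.6-fold increase (4.62 ± 0.10, adjusted p 3.03e-17). DDIT3 had 121 and 120 CPM against 13.4 and 13.2 CPM (3.18 ± 0.07), and ATF3 had 84.4 and 73.7 CPM against 9.04 and 8.31 CPM (3.19 ± 0.08). The stress cytokine GDF15 (3.67 ± 0.11), the pseudokinase TRIB3 (2.31 ± 0.07) and the factors ATF5 (2.01 ± 0.08), ATF4 (1.19 ± 0.06), CEBPG (1.02 ± 0.06) and CEBPB (0.65 ± 0.07) also rose. In each of these 9 genes both SP-2509 libraries lay above both DMSO libraries.

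Falling members, named after their values were seen, were the glutathione-degrading CHAC1 (-1.08 ± 0.11), VLDLR (-0.84 ± 0.15), DDIT4 (-0.75 ± 0.16), STC2 (-0.40 ± 0.09), the mitochondrial protease OMA1 (-0.39 ± 0.11), and the eIF2 alpha kinases EIF2AK4 (GCN2, -0.94 ± 0.06), EIF2AK2 (PKR, -0.34 ± 0.06) and EIF2AK1 (HRI, -0.29 ± 0.05). The kinase of ER stress, EIF2AK3 (PERK), was not called (0.09 ± 0.11).

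Of 13 genes of serine, glycine and one-carbon metabolism 9 fell and 2 rose (median -0.36). PSAT1, the aminotransferase of serine synthesis, had 269 and 240 CPM with SP-2509 and 443 and 446 CPM with DMSO (-0.80 ± 0.06), and PHGDH, the first enzyme of that pathway, had 303 and 301 CPM against 399 and 473 CPM (-0.53 ± 0.07). The mitochondrial ALDH1L2 (-1.79 ± 0.13) and cytosolic ALDH1L1 (-2.59 ± 0.20) fell furthest. The mitochondrial enzyme MTHFD2 rose, with 389 and 354 CPM against 269 and 277 CPM (0.44 ± 0.06), as did MTHFD1 (0.18 ± 0.06), though not under upper-quartile scaling. Of 15 genes for asparagine, proline and arginine synthesis and their neighbours 10 fell and 3 rose (median -0.39). Asparagine synthetase ASNS had 62.5 and 56.5 CPM against 192 and 198 CPM (-1.71 ± 0.06, adjusted p 7.06e-17), and the 3 that rose included glutamine synthetase GLUL (0.86 ± 0.05) and the aspartate aminotransferase GOT1 (0.21 ± 0.06), which was not called under upper-quartile scaling.

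Import genes went up instead. Of 14 amino acid transporters 11 rose and 3 fell (median 0.61). SLC3A2, the heavy chain that several transporters share, had 816 and 796 CPM with SP-2509 and 215 and 240 CPM with DMSO (1.82 ± 0.07), its partner SLC7A5 had 890 and 915 CPM against 481 and 538 CPM (0.83 ± 0.08), and the glutamine carrier SLC38A2 rose by 0.99 ± 0.06. SLC7A2 (-0.87 ± 0.06), SLC6A9 (-0.55 ± 0.07) and SLC7A3 (-2.27 ± 0.48) fell. Among 20 cytosolic tRNA synthetases 9 rose and 6 fell, which became 5 and 7 under upper-quartile scaling, with KARS (0.81 ± 0.06) and FARSA (0.77 ± 0.08) highest and IARS (-0.53 ± 0.06) lowest.

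The regulators and the biosynthetic genes were compared with the other complex III line and with A673. In the CYC1 knockout line, where 33.4% of all tested genes were called (18.7% higher and 14.7% lower), 16 of the 22 regulators rose and 2 fell, and 6 of 13 serine and one-carbon genes rose and 2 fell. ASNS went the opposite way there: 186 and 167 CPM with SP-2509 and 75.2 and 73.5 CPM with DMSO, a rise of 1.24, so that the response of the UQCRFS1 line minus that of the CYC1 line was -2.96 ± 0.09 (adjusted p 9.36e-17). In A673 ASNS had 59.0 and 59.0 CPM with SP-2509 and 255 and 247 CPM with DMSO, a fall of 2.09. PSAT1 had 396 and 364 CPM with SP-2509 and 228 and 231 CPM with DMSO in the CYC1 line (0.73), a difference of -1.53 ± 0.09. Across the lists of regulators, amino acid synthesis and import and tRNA synthetases, 15 of 84 tested members were called in both complex III lines in opposite directions with a called difference (17.9%), against 237 of all 21633 genes tested (1.10%). All 15 fell in the UQCRFS1 line and rose in the CYC1 line. Under DMSO the starting levels differed too, since ASNS lay at 192 and 198 CPM in the UQCRFS1 line and at 75.2 and 73.5 CPM in the CYC1 line.

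**Figure D3:**
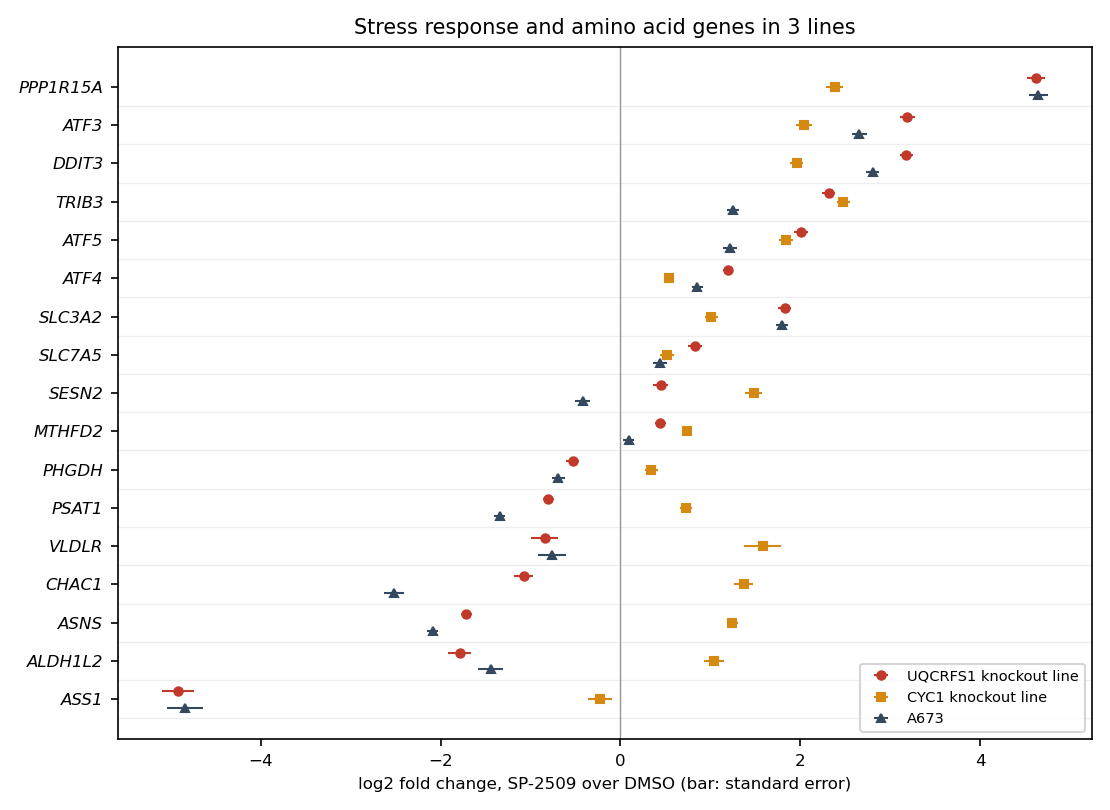
Log2 fold change, SP-2509 over DMSO, of 17 stress response and amino acid genes in the UQCRFS1 knockout line (circles), the CYC1 knockout line (squares) and A673 (triangles), with standard errors. The regulators at the top rose in all 3 lines, while ASNS stands at -1.71 in the UQCRFS1 line, 1.24 in the CYC1 line and -2.09 in A673.

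The C/EBP-ATF response element TGATGNAA, on either strand, was found in 3 of 20 promoters of the regulators (15.0%), in none of 9 of serine and one-carbon genes, in 1 of 10 of asparagine, proline and arginine genes (none of the 7 that fell), in 3 of 11 of the transporters (27.3%) and in 5 of 16 of the tRNA synthetases (31.2%), against 3.83% of all promoters and 2.15% of those of tested genes. CEBPG, which rose, and CHAC1, which fell, both hold one, and their windows are printed with the match in capitals (GRCh38.p14, plus strand).

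CEBPG, chr19:33373863-33374162: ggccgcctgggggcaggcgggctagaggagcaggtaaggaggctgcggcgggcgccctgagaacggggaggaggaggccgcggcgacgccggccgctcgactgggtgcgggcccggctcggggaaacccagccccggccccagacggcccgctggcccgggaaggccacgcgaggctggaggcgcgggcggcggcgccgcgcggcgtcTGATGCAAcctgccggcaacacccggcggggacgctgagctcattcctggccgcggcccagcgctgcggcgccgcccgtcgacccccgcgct
CHAC1, chr15:40953221-40953520: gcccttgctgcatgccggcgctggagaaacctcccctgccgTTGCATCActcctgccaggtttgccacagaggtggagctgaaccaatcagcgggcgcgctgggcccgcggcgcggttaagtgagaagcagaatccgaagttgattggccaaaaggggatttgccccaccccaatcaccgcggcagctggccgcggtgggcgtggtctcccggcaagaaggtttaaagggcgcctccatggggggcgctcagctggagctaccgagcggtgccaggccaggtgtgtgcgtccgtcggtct

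Genes of protein folding and of the oxidative stress response fell on balance. Of 20 ER chaperones and unfolded protein response genes 14 fell (70%) and 5 rose (25%), with a median of -0.31, against 25.1% and 29.6% of all tested genes. PDIA4, a disulfide isomerase, had 206 and 203 CPM with SP-2509 and 463 and 517 CPM with DMSO (-1.26 ± 0.07), and the chaperone HSPA5 (BiP) had 431 and 436 CPM against 598 and 624 CPM (-0.50 ± 0.06). The 5 that rose, named after their values were seen, were the sensors ERN1 (1.67 ± 0.10) and ATF6 (0.87 ± 0.06) and the degradation factors HERPUD1 (0.56 ± 0.06), DNAJB9 (0.44 ± 0.07) and SEL1L (0.41 ± 0.06). Of 13 cytosolic heat shock genes 8 fell (61.5%) and 4 rose (30.8%). HSPB1 had 69.2 and 67.6 CPM against 184 and 211 CPM (-1.53 ± 0.07), while HSF1, the gene of the activator of heat shock genes, rose. The chaperone genes CRYAB (2.97-fold), DNAJA1 (1.45-fold) and HSPH1 (1.22-fold) were also higher with SP-2509.

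Of 28 antioxidant genes under NRF2 15 fell (53.6%) and 7 rose (25%), with a median of -0.40, against 25.1% and 29.6% of all tested genes. PIR had 3.47 and 3.40 CPM with SP-2509 and 44.2 and 46.3 CPM with DMSO (-3.72 ± 0.08), and NQO1, a standard readout of NRF2, had 14.6 and 13.7 CPM against 34.7 and 37.4 CPM (-1.35 ± 0.07). The NADPH-producing ME1 fell by 1.55 ± 0.06 on the log2 scale, and NFE2L2, the gene of NRF2, rose by 0.36 ± 0.06. Haem oxygenase HMOX1 had 1.31 and 1.47 CPM with SP-2509 and 3.42 and 3.42 CPM with DMSO (-1.30 ± 0.15), whereas in A673 it had 6.44 and 5.14 CPM with SP-2509 and 1.99 and 2.35 CPM with DMSO (1.42). That difference of responses, -2.71 ± 0.20 (adjusted p 3.98e-09), was the largest negative one among genes with at least 5 CPM in 1 of the 4 groups and at least 4 counts in each. Of 10 iron handling genes 6 fell (60%) and 2 rose (20%), with a median of -0.33, against 25.1% and 29.6% of all tested genes. The transferrin receptor TFRC had 1465 and 1371 CPM with SP-2509 and 543 and 569 CPM with DMSO (1.35 ± 0.06). Ferritin light chain FTL rose (0.60 ± 0.06), and the exporter SLC40A1 fell (-1.54 ± 0.17). The antioxidant response element TGACNNNGC was found in 6 of 21 promoters of the NRF2 list (28.6%), against 13.4% of all promoters.

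Immediate early genes rose in nearly every case. AP-1 is built from FOS and JUN family proteins and is induced by growth factor and stress kinases, with EGR factors and dual-specificity phosphatases (DUSP) as companions. Of 27 such genes 26 rose and none fell, with a median of 1.76, against 29.6% of all tested genes that rose. The one not called was NR4A3 (0.16 ± 0.11). JUN had 267 and 262 CPM with SP-2509 and 20.8 and 22.2 CPM with DMSO (3.62 ± 0.09), FOSL2 had 74.2 and 75.2 CPM against 5.49 and 5.87 CPM (3.72 ± 0.10), and FOS had 66.3 and 65.2 CPM against 11.8 and 9.09 CPM (2.65 ± 0.11). EGR2 (2.22 ± 0.08) and the AP-1 partner MAFF (3.31 ± 0.09) rose as well, and in all 5 genes the SP-2509 libraries lay above the DMSO libraries.

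Some of these responses were larger than in A673. EGR1 had 173 and 180 CPM with SP-2509 and 56.7 and 45.3 CPM with DMSO (1.79 ± 0.16), whereas in A673 it had 214 and 189 CPM with SP-2509 and 217 and 199 CPM with DMSO. The difference of responses was 1.84 ± 0.23 (adjusted p 0.000888), and the 2 lines lay closer together with SP-2509 than with DMSO. FOSB (1.60 ± 0.22) and FOS (1.24 ± 0.15) also differed upward. In all, the difference was called higher for 6 of the 27 and lower for 2, against 3.02% and 7.68% of all tested genes. In the CYC1 line 14 of the 27 rose and 2 fell, and the response of the UQCRFS1 line was called higher than that of the CYC1 line for 26 of the 27, all but NR4A1, where 16.6% of all tested genes were called higher and 12.4% lower. FOS fell in the CYC1 line, with 38.0 and 37.5 CPM with SP-2509 and 69.7 and 61.3 CPM with DMSO.

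Targets of YAP and TAZ, the coactivators held back by the Hippo pathway, followed. Of 24 genes 19 rose (79.2%) and 2 fell (8.33%), with a median of 1.16, against 29.6% and 25.1% of all tested genes. CTGF, a matricellular protein, had 199 and 199 CPM with SP-2509 and 14.5 and 16.8 CPM with DMSO (3.67 ± 0.09), CYR61 had 148 and 146 CPM against 27.4 and 23.4 CPM (2.53 ± 0.10), and AMOTL2, a feedback inhibitor of YAP, had 315 and 319 CPM against 85.0 and 98.6 CPM (1.79 ± 0.07). DOCK5 (-0.96 ± 0.10) and ARHGEF17 (-0.77 ± 0.08) fell. Compared with A673 the difference was called lower for 9 of the 24 and higher for none, against 7.68% and 3.02% of all tested genes. Among the 9 was the receptor tyrosine kinase AXL, which was not called in the knockout line (-0.15 ± 0.19) and rose in A673 (2.23), a difference of -2.38 ± 0.25. CTGF had a fold change of 3.67 in each line (difference 0.00 ± 0.13, adjusted p 1.00). In the CYC1 line CTGF had 162 and 184 CPM with SP-2509 and 161 and 148 CPM with DMSO and was not called.

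Genes that EWSR1::FLI1 is known to repress rose. Of 27 genes on that list 19 rose (70.4%) and 4 fell (14.8%), with a median of 1.73, against 29.6% and 25.1% of all tested genes. Several of its genes (CTGF, CYR61, ANKRD1 and THBS1) are also known as targets of YAP or of TGF beta signalling. Tenascin TNC had 744 and 777 CPM with SP-2509 and 156 and 171 CPM with DMSO (2.22 ± 0.08), the crosslinking enzyme LOX had 117 and 107 CPM against 21.1 and 20.8 CPM (2.42 ± 0.07), and PHLDA1 had 38.1 and 37.1 CPM against 2.75 and 3.33 CPM (3.63 ± 0.09). IGFBP3, a gene through which the fusion is known to control growth factor signalling, had 6.92 and 6.27 CPM against 0.296 and 0.2 CPM (4.71 ± 0.21). The 4 that fell, named after their values were seen, were COL1A2 (-2.17 ± 0.09), IGFBP5 (-1.34 ± 0.14), TGFBI (-1.17 ± 0.10) and COL3A1 (-0.89 ± 0.09).

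Genes that the fusion is known to activate did not fall as a group. Of 29 tested 18 rose (62.1%) and 8 fell (27.6%), with a median of 0.33, against 29.6% and 25.1% of all tested genes. NR0B1, a transcription factor that Ewing cells depend on, had 178 and 174 CPM with SP-2509 and 105 and 117 CPM with DMSO (0.66 ± 0.07), the potassium channel KCNN1 rose, and the protease PAPPA rose by 1.34 ± 0.07. Cyclin D1, CCND1, had 1685 and 1695 CPM against 1073 and 1130 CPM (0.62 ± 0.06), and was not called in A673 (0.01), with a difference of 0.61 ± 0.09. PPP1R1A (-1.40 ± 0.07), the neuropeptide receptor NPY1R (-0.61 ± 0.06), JAK1 (-0.60 ± 0.06) and CD99 (-0.54 ± 0.06) fell. NPY1R had 168 and 159 CPM with SP-2509 and 258 and 239 CPM with DMSO, and its response differed from that in A673 by -0.56 ± 0.09.

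**Figure D4:**
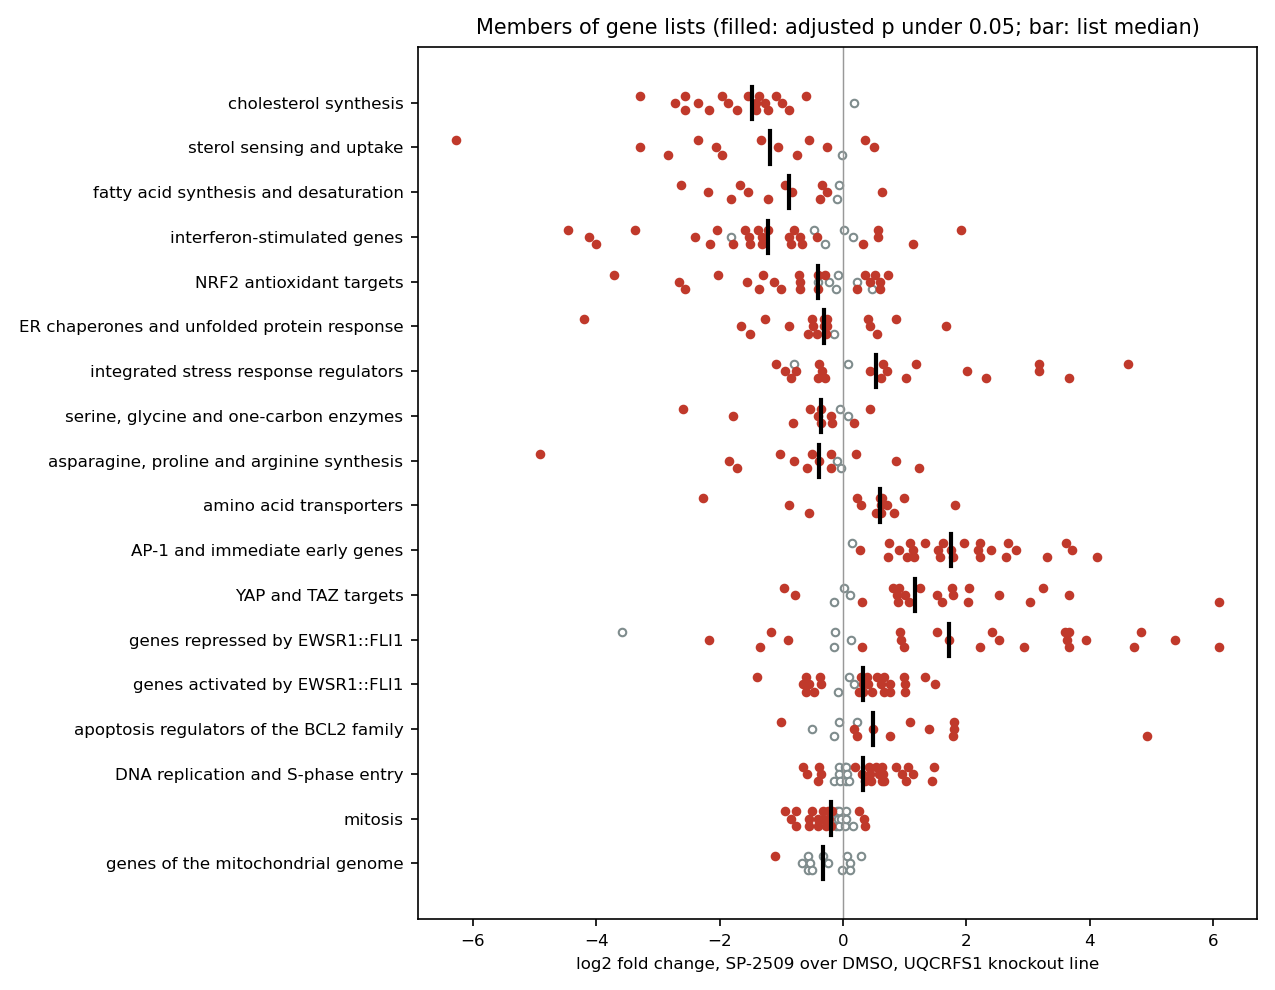
Log2 fold change, SP-2509 over DMSO, of each tested member of 18 gene lists in the UQCRFS1 knockout line (filled points, adjusted p under 0.05; open points, not called; bar, list median). Cholesterol synthesis lies furthest down as a whole, with a median of -1.48, and AP-1 and immediate early genes furthest up, with a median of 1.76.

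Secreted, matrix and lineage genes moved in both directions, where 29.6% of all tested genes rose and 25.1% fell. Among cytokines and innate mediators 12 of 22 tested rose and 2 fell, with the receptor IL7R at 19.3 and 18.6 CPM with SP-2509 and 1.03 and 0.741 CPM with DMSO (4.41 ± 0.11). NF-kappa-B's inhibitor NFKBIA was not called (-0.09 ± 0.07) except, as lower, under upper-quartile scaling. MMP1 had 442 and 396 CPM with SP-2509 and 13.1 and 15.7 CPM with DMSO, MMP10 rose by 3.31 ± 0.16, and MMP9, with 0.51 and 0.637 CPM against 3.61 and 4.69 CPM, fell by 2.85 ± 0.23 on the log2 scale. Of 23 collagens 13 fell and 6 rose: COL16A1 had 17.8 and 19.0 CPM with SP-2509 and 119 and 122 CPM with DMSO (-2.71 ± 0.09), and COL12A1 had 76.0 and 78.7 CPM against 14.5 and 14.7 CPM (2.41 ± 0.08). Of 17 cadherins and mesenchymal regulators 10 rose and 3 fell, with N-cadherin CDH2 at 281 and 276 CPM against 91.3 and 87.5 CPM (1.64 ± 0.07).

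In BMP signalling 13 of 20 rose (65%) and 3 fell (15%), against 29.6% and 25.1% of all tested genes. The inhibitor of differentiation ID1, a direct BMP target, had 63.6 and 58.4 CPM with SP-2509 and 7.29 and 9.94 CPM with DMSO (2.82 ± 0.09), and ID3 (1.83 ± 0.07) and ID2 (1.11 ± 0.07) rose too. The BMP antagonist GREM1 had 4.96 and 4.52 CPM against 0.118 and 0.12 CPM (5.28 ± 0.20), and the ligand BMP7 fell (-1.29 ± 0.10). Other ligands, whether called or not, went both ways. BMP2 (26.9-fold) and BMP6 (3.59-fold) were higher, and BMP4 (1.77-fold) and BMP5 (2.37-fold) were lower. Of 24 neuronal genes known to be silenced by REST, which works with CoREST and LSD1, 14 rose (58.3%) and 3 fell (12.5%), with a median of 0.85. The neuropeptide precursor VGF had 50.5 and 49.2 CPM against 1.94 and 2.26 CPM (4.57 ± 0.11), and BEX1 had 59.5 and 57.4 CPM against 14.7 and 19.1 CPM (1.79 ± 0.08). SYN1, a synaptic vesicle protein, fell (-1.02 ± 0.13), and REST itself rose slightly (0.27 ± 0.06) but was not called under upper-quartile scaling.

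LSD1's partners fell more often than they rose, 12 (52.2%) against 5 (21.7%) of 23, where 25.1% of all tested genes fell and 29.6% rose. The CoREST protein RCOR2 had 2.53 and 3.31 CPM with SP-2509 and 11.6 and 12.9 CPM with DMSO (-2.07 ± 0.14), the complex member HMG20B had 17.7 and 19.6 CPM against 47.0 and 53.1 CPM (-1.42 ± 0.09), and deacetylase HDAC1 had 143 and 141 CPM against 209 and 222 CPM (-0.60 ± 0.06). HDAC2 rose (0.30 ± 0.06), RCOR1 was not called (0.04 ± 0.06), and the second lysine demethylase of the family, KDM1B, fell (-0.75 ± 0.09). Of 16 other histone demethylases, which carry the JmjC fold, 12 rose and 2 fell. KDM3A had 257 and 251 CPM against 91.8 and 89.7 CPM (1.49 ± 0.05), and KDM6B, an eraser of H3K27 methylation, had 135 and 148 CPM against 54.8 and 59.7 CPM (1.30 ± 0.08).

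Transcripts of the respiratory chain moved by small amounts in both directions. Of 15 complex III subunits and assembly factors 4 rose (26.7%) and 3 fell (20%), near the shares of all tested genes, 29.6% and 25.1%, and the counts became 4 and 5 under upper-quartile scaling. The assembly chaperone BCS1L, which inserts the Rieske protein into complex III, had 55.2 and 54.3 CPM with SP-2509 and 31.4 and 36.2 CPM with DMSO (0.70 ± 0.07), and the hinge protein UQCRH had 384 and 327 CPM against 234 and 234 CPM (0.60 ± 0.07). CYC1 had 308 and 268 CPM against 268 and 307 CPM, which overlap (0.00 ± 0.07). The matrix chaperone of the Rieske protein, LYRM7, fell slightly (-0.20 ± 0.07).

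Complex I subunits also lay near those shares, with 11 higher and 10 lower of 38 (28.9% and 26.3%), turning to 7 and 12 under upper-quartile scaling. Of 29 subunits of complexes II, IV and V 4 rose (13.8%) and 10 fell (34.5%). NDUFB10 had 53.3 and 49.1 CPM with SP-2509 and 82.8 and 90.8 CPM with DMSO (-0.76 ± 0.07), and COX5B had 98.1 and 93.1 CPM against 154 and 166 CPM (-0.74 ± 0.07). Of the 13 protein-coding genes of the mitochondrial genome only MT-CO3 was called, with 1104 and 1146 CPM against 2731 and 2091 CPM (-1.10 ± 0.25). The other 12 had standard errors between 0.25 and 0.44, so that MT-CO1, at -0.67 ± 0.33, was not called. Mitochondrial ribosomal proteins leaned upward, 35 higher and 7 lower of 72 (23 and 18 under upper-quartile scaling), led by MRPL37 (1.02 ± 0.06).

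Sugar metabolism also split. Of 23 glycolysis genes 11 rose (47.8%) and 6 fell (26.1%), against 29.6% and 25.1% of all tested genes. Under upper-quartile scaling 10 rose and 10 fell. PFKFB3, which makes the activator of phosphofructokinase, had 190 and 185 CPM with SP-2509 and 30.4 and 33.9 CPM with DMSO (2.54 ± 0.07), the glucose carrier SLC2A3 rose by 1.39 ± 0.07 and the lactate carrier SLC16A1 by 1.06 ± 0.06. GAPDH was not called (-0.06 ± 0.16), and ALDOC fell (-2.62 ± 0.21). Hexokinase HK2 had 216 and 230 CPM with SP-2509 and 94.9 and 109 CPM with DMSO (1.13 ± 0.07), a response 0.42 ± 0.10 above that of A673. Of 18 hypoxia-inducible genes 9 rose (50%) and 8 fell (44.4%). The difference to A673 was called lower for 7 and higher for none, against 7.68% and 3.02% of all tested genes. Among the 7 was VEGFA, which fell (-0.30 ± 0.06) and was not called in A673 (0.02).

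Cell cycle genes split by phase. Of 34 genes of DNA replication and S-phase entry 19 rose (55.9%) and 5 fell (14.7%), with a median of 0.33. Of 30 mitotic genes 16 fell (53.3%) and 3 rose (10%), with a median of -0.19. Over all tested genes 29.6% rose and 25.1% fell. The phosphatase CDC25A had 218 and 218 CPM with SP-2509 and 76.1 and 80.5 CPM with DMSO (1.48 ± 0.06), and ribonucleotide reductase RRM2 had 1299.98 and 1229.8 CPM against 594 and 619 CPM (1.06 ± 0.06). The checkpoint kinase BUB1 had 111 and 103 CPM against 208 and 200 CPM (-0.93 ± 0.06), and cyclin CCNB1 had 256 and 234 CPM against 403 and 429 CPM (-0.76 ± 0.06). MKI67, a proliferation marker, rose (0.36 ± 0.07).

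Death and damage genes leaned upward, where 29.6% of all tested genes rose and 25.1% fell. Of 15 BCL2 family genes 10 rose and 1 fell: the pro-survival MCL1 had 543 and 543 CPM with SP-2509 and 150 and 161 CPM with DMSO (1.80 ± 0.06), BCL2 had 136 and 137 CPM against 37.7 and 40.3 CPM (1.81 ± 0.06), and the pro-death PMAIP1 (NOXA) had 217 and 195 CPM against 60.2 and 58.9 CPM (1.79 ± 0.07). HRK had 10.2 and 9.48 CPM against 0.257 and 0.381 CPM, and BMF fell (-1.01 ± 0.08). Of 22 p53 targets 11 rose (50%) and 6 fell (27.3%), the latter near the share of all tested genes. GADD45A and GADD45B, stress-inducible growth arrest genes, rose by 3.03 ± 0.07 and 3.09 ± 0.07, CDKN1A had 50.3 and 49.9 CPM against 24.5 and 27.4 CPM (0.95 ± 0.06), and MDM2, with 188 and 190 CPM against 177 and 187 CPM, was not called. A673 is known to lack functional p53.

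Set against A673 gene by gene, 9653 of the 11837 genes called in the knockout line (81.5%) were called in the same direction in A673, 146 (1.23%) in the opposite direction and 2038 (17.2%) not at all. The difference between the responses was called for 2315 genes (10.7%), 654 higher and 1661 lower in the knockout line, and for 395 of them it was at least 2-fold. Without 1 of the A673 SP-2509 libraries, replicate 1, that count was 1313. Against the CYC1 line 5953 genes (50.3%) were called in the same direction in both and 237 (2.00%) in opposite directions, and the difference was called for 6268 genes (29.0%).

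The replication-dependent histones gave the most uniform difference from A673. These genes supply histones in S phase and normally end in a stem-loop without a poly(A) tail, so a poly(A) library counts only their polyadenylated part. Of 56 listed 25 were found in the files and tested. In the UQCRFS1 line 12 fell and 3 rose (median -0.35), against 24 that fell and none that rose in A673 (median -1.31). The difference from A673 was called higher for 16 and lower for none, against 3.02% and 7.68% of all tested genes. The CYC1 line had 6 falls and 4 rises (median -0.13), the MRPL45 line 9 falls and 1 rise (median -0.24). The difference from the CYC1 line was called higher for 2 and lower for 6, against 16.6% and 12.4%. A smaller median fall than in A673 was thus not particular to the UQCRFS1 line. HIST1H1D had 380 and 370 CPM with SP-2509 and 537 and 585 CPM with DMSO in the UQCRFS1 line (-0.58 ± 0.06), and 91.6 and 92.5 CPM with SP-2509 and 516 and 495 CPM with DMSO in A673 (-2.46). The difference of responses was 1.88 ± 0.08 (adjusted p 5.05e-13). HIST1H3J (2.07 ± 0.10), HIST1H1B (1.71 ± 0.10) and HIST1H1C (1.45 ± 0.08) differed likewise. Histone genes are near-identical copies, so reads may be shared between them.

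Ribosomal proteins and lysosomal genes differed from A673 as well, in opposite directions. Over all tested genes that difference was called higher for 3.02% and lower for 7.68%. Of 75 cytosolic ribosomal proteins 44 rose and 4 fell in the knockout line (median 0.34), against 21 and 9 in A673 (median 0.06), and the difference was called higher for 21 and lower for none. RPL24 had 1525 and 1370.4 CPM with SP-2509 and 725 and 731 CPM with DMSO (0.99 ± 0.07), with 0.36 in A673. Under upper-quartile scaling 35 rose and 6 fell in the knockout line. The CYC1 line shared the rise, with 40 higher and 1 lower (median 0.29), against 18.7% and 14.7% of all tested genes there. The difference from the CYC1 line was called higher for 5 ribosomal proteins and lower for 2. Of 34 lysosome and autophagy genes 21 rose and 5 fell in the UQCRFS1 line (median 0.37), against 26 and 5 in A673 (median 0.71). The difference from A673 was called lower for 15 and higher for none. In the CYC1 line 12 rose and 5 fell (median 0.09), and the difference from that line was called higher for 15 and lower for 3. The protease CTSL fell in the UQCRFS1 line and in A673. It had 3.61 and 3.33 CPM with SP-2509 and 13.6 and 13.6 CPM with DMSO in the UQCRFS1 line (-1.97 ± 0.09), and a fold change of -0.96 in A673. The factor TFEB fell in the UQCRFS1 line (-2.12 ± 0.23).

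Among single genes, KITLG, the ligand of the KIT receptor, had 66.3 and 63.5 CPM with SP-2509 and 49.4 and 47.3 CPM with DMSO in the knockout line (0.42 ± 0.06), and 85.5 and 89.7 CPM with SP-2509 and 20.9 and 20.7 CPM with DMSO in A673 (2.07). The difference was -1.65 ± 0.09. The actin crosslinker FLNC behaved alike, with 0.47 ± 0.08 in the knockout line and 2.11 in A673. In both genes the DMSO level of the knockout line was already above that of A673. OPTN, an autophagy receptor, fell in the knockout line (-0.80 ± 0.10) and rose in A673 (1.13). TGM2 was not called in the knockout line (-0.18 ± 0.15) and rose in A673 (1.57), and the receptor CD44 rose in both, by 3.67 ± 0.28 and 5.38, a difference whose call was lost without UQCRFS1 DMSO replicate 2 (adjusted p 0.53) and in 3 of the other fits without 1 library.

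**Figure D5:**
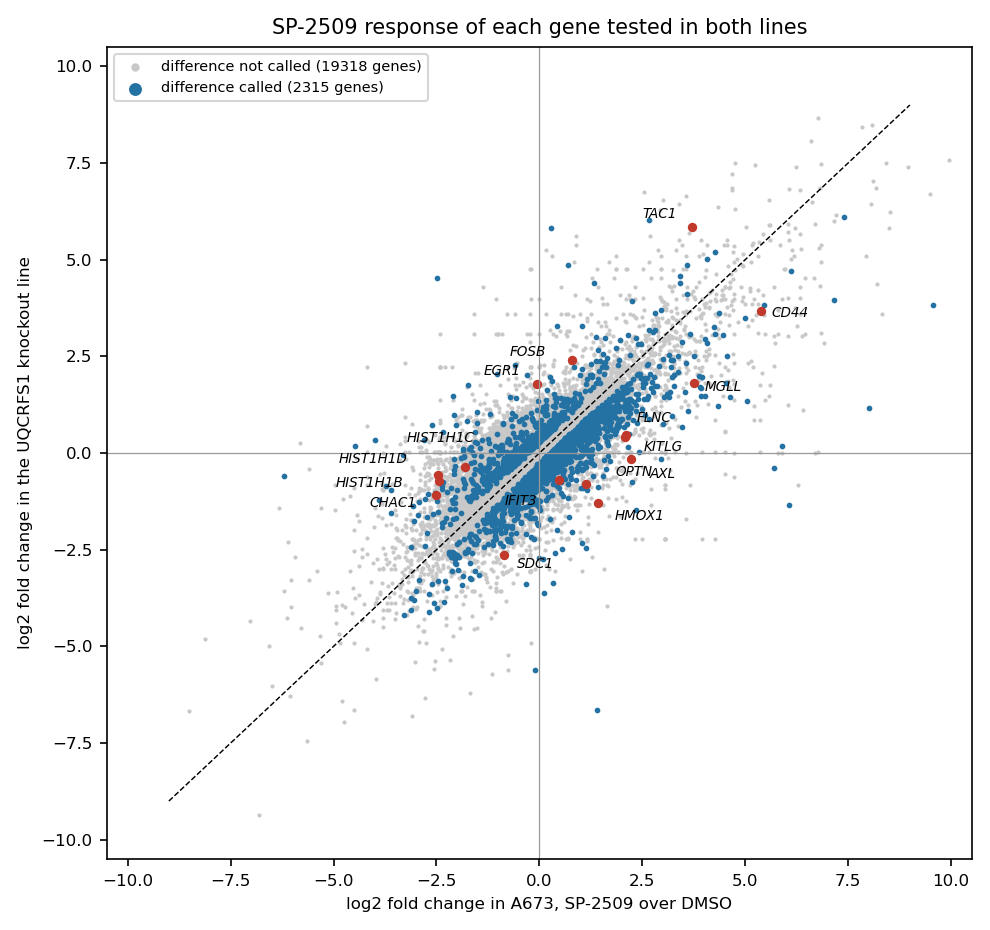
Log2 fold change, SP-2509 over DMSO, of 21633 genes in the UQCRFS1 knockout line (y axis) and in A673 (x axis), with the line of equal response dashed, genes with a called difference in blue and a few named genes in red. Most points follow the dashed line; HIST1H1D lies at -0.58 in the knockout line and -2.46 in A673, and EGR1 at 1.79 and -0.05.

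Markers of the line and of other cells were read in the same way. Ewing sarcoma genes were present in every library of the knockout line, with CD99 at 621 and 635 CPM with SP-2509 and 865 and 967 CPM with DMSO and NKX2-2 at 48.4 and 48.8 CPM against 42.2 and 48.7 CPM. Summed over the 5 haematopoietic markers tested, the level was 9.55 and 8.90 CPM with SP-2509 and 7.48 and 7.59 CPM with DMSO, nearly all of it CD79A. The 3 endothelial markers summed to 1.12 and 0.88 CPM against 0.45 and 0.32 CPM, the 5 melanocyte markers to 6.33 and 5.63 CPM against 1.60 and 1.96 CPM, and the 5 epithelial markers to 53.3 and 63.6 CPM against 73.8 and 95.2 CPM, nearly all of it KRT18. Of 7 fibroblast markers 5 fell (71.4%) and 1, PDGFRA, rose (14.3%, by 2.97-fold), against 25.1% and 29.6% of all tested genes. The 7 markers summed to 288 and 306 CPM against 891 and 995 CPM, most of it COL1A2 and COL1A1. DCN, which marks fibroblasts, was at 0.51 and 0.498 CPM with SP-2509, against 7.78 and 6.95 CPM with DMSO. LUM, another such marker, was at 0.225 and 0.119 CPM with SP-2509, against 4.01 and 3.02 CPM with DMSO. Every library is labelled as A673 or a knockout line of it, and none as fibroblasts. The part of these markers in the collagen and matrix results was not tested, and in bulk RNA fewer cells of a type and less RNA per cell cannot be told apart.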

How the data were processed

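Poly(A) RNA of 16 libraries, 2 in each of 8 groups, was sequenced. The authors deposited raw counts per gene, in tables of 39249 genes, and per the submitters' processing notes used FastQC, MultiQC, Trim Galore, STAR 2.5.2b, hg19 and DESeq2. The sources used here do not give the counting program, annotation or strand setting, so reads of overlapping or near-identical genes may be shared. The log2 fold changes and the p-values of the authors' deposited table were used only to count shared calls. Symbols turned into dates (27) were restored by Ensembl ID.

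Counts were fitted with edgeR 4.0.16 (R 4.3.3; TMM, filterByExpr, robust quasi-likelihood, 8 group means, 8 residual degrees of freedom) and adjusted by Benjamini-Hochberg over 21633 genes. Each standard error was taken as |log2 fold change| divided by the root of F. No 2 libraries of a group agreed within sampling noise, and counting error is small at these depths, so n = 2 limits precision. On simulated data with 50 changed genes per fold size, 76% of 1.5-fold and 94% of 2-fold changes were recovered, with 11 of 21433 unchanged genes called. The 200 changed genes left out those with the lowest DMSO levels, and the libraries were drawn independently. Far fewer genes changed than were called in the data (54.7%), so these rates may not carry over.

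Members and gene lists were chosen with earlier results of these data known. Named genes are the largest changes by fold (at least 5 CPM in the higher group, 4 counts in the lower, libraries not overlapping) and by CPM (outside the mitochondrial genome), the 3 called genes with the smallest p per direction in each list, and the largest differences from A673, and further list members were named after their values were seen. Same-numbered libraries were taken as pairs only in the replicate block, an alternative fit. The main fit, which gave the calls and standard errors reported here, did not use pairing. Deviations of same-numbered libraries correlated in each line, weakly in the MRPL45 line (0.489 in A673, 0.151, 0.651 and 0.485 in the MRPL45, CYC1 and UQCRFS1 lines, over 10597 genes). Promoter sequences are RefSeq's on GRCh38.p14, matched by symbol for 13042 tested genes, and no coordinate was taken from hg19. DESeq2 1.42.0, other scalings and filters, the replicate block, a fit of the lines compared alone, and leaving out each library were the alternatives. Some genes that met the rule for naming are not reported here.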

Additional observations from a re-analysis of the deposited data

Results flagged for a closer look

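The response to SP-2509 differed between the UQCRFS1 knockout line and A673 for 2315 genes, and between the UQCRFS1 and CYC1 knockout lines for 6268 genes, by a test of the difference itself in the edgeR fit. Values are log2 differences of responses, UQCRFS1 line minus the other line, each with an adjusted p under 0.05.

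Among the genes singled out for size, those with a higher response than in A673 were TAC1 (2.14), HIST1H3J (2.07), HIST1H1D (1.88), EGR1 (1.84), HIST1H1B (1.71), PTPRO (1.63), FOSB (1.60), SNORA38B (1.55), HIST1H1C (1.45) and CHAC1 (1.44). Genes with a lower response than in A673 were HMOX1 (-2.71), AXL (-2.38), OPTN (-1.94), MGLL (-1.93), SDC1 (-1.79), TGM2 (-1.74), CD44 (-1.71), SH2D5 (-1.71), KITLG (-1.65), FLNC (-1.64), ABCA3 (-1.38), MIR100HG (-1.27), CDS1 (-1.245), LOXHD1 (-1.21) and IFIT3 (-1.17). Those in the second set with opposite calls in the 2 lines include HMOX1, OPTN and IFIT3.

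Stress response and amino acid genes that fell in the UQCRFS1 line and rose in the CYC1 line were ASNS (-2.96), ALDH1L2 (-2.83), CHAC1 (-2.45), VLDLR (-2.42), PSAT1 (-1.53), STC2 (-1.46), DDIT4 (-1.30), SLC6A9 (-0.91), PHGDH (-0.87), PSPH (-0.74), EPRS (-0.67), GPT2 (-0.66), MARS (-0.55), CARS (-0.50) and SHMT2 (-0.47). Each gene was knocked out in 1 line, so that the knocked-out gene and other traits of the line cannot be told apart.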

How the results depend on the processing

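The count of 11837 called genes lay between 8841 with a filter of 5 CPM in 2 libraries and 12217 with the replicate block, and was 10374 with DESeq2. Leaving out 1 library gave between 10306 and 10748, with the lone library of that group assumed to vary like the others. The block, which uses the pairing of the libraries, moved no count over all genes by more than 1.5 times and 2 of 102 list counts, and among 367 fold changes it ended 1 call, that of EWSR1 (adjusted p 0.0660 with edgeR), and added 1, that of KRT18. Genes called with at least a 2-fold change numbered 1875 under the stricter filter, which tests fewer genes. The count of genes whose response differed from A673 ran from 1313, without A673 SP-2509 replicate 1, to 2212 when 1 library was left out, and the cause was not tested. KDM1A changed sign, to -0.12 under the stricter filter (adjusted p 0.0212 with edgeR) and -0.12 with upper-quartile factors (adjusted p 0.0405), and both settings moved all fold changes by -0.136. With upper-quartile factors 15 of 367 fold changes lost their call, and with DESeq2 6. Of 102 list counts, 18 moved by over 1.5 times with upper-quartile factors, 23 with the stricter filter and 3 with DESeq2. All 25 response differences from A673 kept their call under the settings that use every library of these lines, and CD44 lost its call in some fits without 1 library.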
